A study of Homo sapiens with 9 samples.

Results

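The 10 genes described here encode subunits of the TIP60 and SRCAP chromatin complexes, namely RUVBL1, RUVBL2, ACTL6A, DMAP1, KAT5, TRRAP, EP400, SRCAP, YEATS4 and VPS72. They were chosen by name, as factors linked to H3K4ox chromatin and to these complexes, and each matched 1 row of the 63657 Ensembl genes in the deposited expression table. H3K4ox is histone H3 oxidised at lysine 4, a reaction attributed to the enzyme LOXL2. RNA was sequenced from MDA-MB-231, a human cell line from a triple-negative breast tumour, infected with a short hairpin RNA against LOXL2 (shLOXL2, 2 libraries) or with a control hairpin (shControl, 2 libraries). The labels do not say which hairpin sequence was used, whether the infected cells were a pool or a clone, or whether the replicates are separate cultures. The p-values therefore rest on the spread between libraries alone, and that spread may be technical. The question taken from this design is whether LOXL2 depletion was accompanied by a change in the RNA of these complexes.

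TIP60 is a large acetyltransferase complex that modifies histones H4 and H2A and the kinase ATM, and it is known for its work at DNA breaks and at active promoters. SRCAP is a related remodelling complex that uses ATP to place the variant histone H2A.Z into nucleosomes at promoters. The complexes share the RUVBL1 and RUVBL2 ATPases, the actin-related protein encoded by ACTL6A, and the DMAP1, YEATS4 and VPS72 subunits, while KAT5, TRRAP and EP400 belong to TIP60 and not to SRCAP.

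LOXL2, the targeted gene (ENSG00000134013), stood at 15.2 and 12.1 FPKM in the shLOXL2 libraries and at 85.5 and 84.5 FPKM in the shControl libraries. FPKM is the fragment count divided by transcript length and by the mapped fragments of the library, so its levels can be compared between genes. The sum of FPKM over all genes was 1330440 and 1369370 in shLOXL2 and 1244380 and 1221570 in shControl. All 9 genes listed as markers of the line, among them VIM and CD44, averaged at least 1 FPKM, and of 5 genes listed as absent from it, ESR1, PGR and FOXA1 averaged below 1 FPKM. The other two did not, with CDH1 at 1.43 and 1.51 FPKM in shLOXL2 and 0.339 and 0.837 FPKM in shControl, and GATA3 at 1.46 and 0.944 FPKM in shLOXL2 and 1.65 and 1.66 FPKM in shControl. Of the markers of other cells, 2 of 10 fibroblast genes (COL1A1 and PDGFRB) reached a mean of 1 FPKM, and the list summed to 12.4 and 10.2 FPKM in shLOXL2 and 6.07 and 7.43 FPKM in shControl, with none at 0 in all libraries. Of 9 haematopoietic markers 3 reached it (CD14, CD68 and LYZ), with sums of 151 and 147 FPKM in shLOXL2 and 139 and 150.03 FPKM in shControl, and with CD3E and TYROBP listed at 0 throughout. Of 8 embryonic kidney and neural-like markers 3 reached it (ENO2, TUBB3 and WT1), with sums of 181 and 189 FPKM in shLOXL2 and 96.8 and 101 FPKM in shControl, and with PAX2 and STMN2 listed at 0. Single genes made up most of the last 2 sums. CD68 had 148 and 144 FPKM in shLOXL2 and 136 and 147 FPKM in shControl. TUBB3 had 153 and 162 FPKM in shLOXL2 and 75.3 and 78.5 FPKM in shControl. The median over the haematopoietic list was 0.049 FPKM, and over the kidney and neural-like list 0.075 FPKM. A listed 0 can be a failed estimate in this table, since EEF1A1, a translation factor gene that every cell uses, is also listed at 0 in all 4 libraries. The part of these markers in the results below was not tested.

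All 10 genes were expressed in every library, at levels that spanned ACTL6A at a mean of 271 FPKM over the 4 libraries to EP400 at 1.86 FPKM. ACTL6A was followed by RUVBL2 at 130 FPKM, VPS72 at 70.5 FPKM, RUVBL1 at 52.8 FPKM and KAT5 at 51.7 FPKM. YEATS4 averaged 22.1 FPKM, DMAP1 19.4 FPKM, SRCAP 7.33 FPKM and TRRAP 4.35 FPKM. Among neighbours in this order, RUVBL1 and KAT5 overlapped in their library values, as did YEATS4 and DMAP1, and the other neighbours were apart in all 4 libraries. The genes of the largest scaffold and motor proteins, SRCAP, TRRAP and EP400, were the 3 lowest. ACTL6A exceeded 97.0% of the protein-coding genes tested and EP400 exceeded 5.02% of them. The spread over the 4 libraries, as the SD in percent of the mean, was smallest for RUVBL1 at 1.96% and largest for DMAP1 at 14.0%, with a median of 8.80% over the 10 genes and 9.52% over 11216 protein-coding genes.

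**Figure D1:**
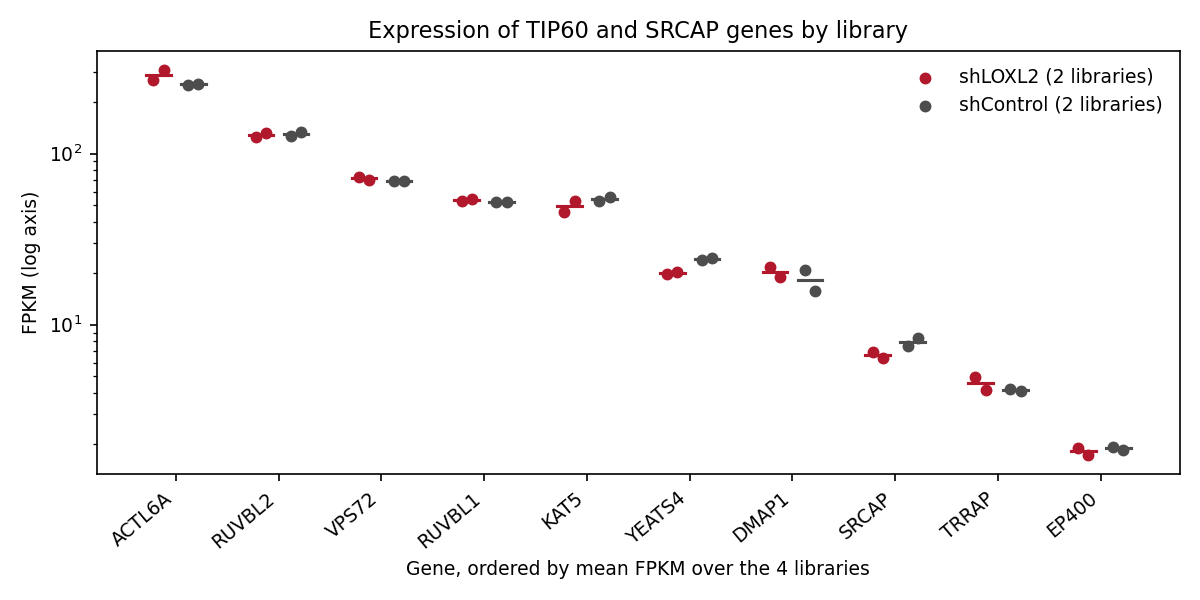
FPKM of each gene in each library on a log axis, with shLOXL2 left of shControl, points for single libraries and a line at the mean of the 2 libraries. The genes span 1.86 to 271 FPKM in their mean over the 4 libraries, and YEATS4 and SRCAP have both shLOXL2 points below both shControl points.

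Of the 10 genes, 1 fell in shLOXL2 cells and 0 rose at an adjusted p below 0.05 in limma, fitted on log2(FPKM + 1) over all genes that averaged 1 FPKM or more. All 10 passed that filter. YEATS4 was the gene that fell, to 82.7% of its shControl mean. Among all 16987 genes tested, 16.9% passed, 8.54% as lower and 8.35% as higher in shLOXL2, and 20.8% of protein-coding genes passed, so the share of 1 in 10 did not exceed the background. With libraries scaled to equal sums of non-mitochondrial genes, 1025 of all genes rose and 2175 fell, in place of 1419 and 1450, and YEATS4 was again the gene of the 10 that passed (limma adjusted p = 0.0211). The median log2 change of the 10 genes was 0.011, with 5 positive and 5 negative, and the median over all genes tested was -0.0041. Their median absolute log2 change was 0.12, against 0.18 over all genes tested. At an unadjusted p below 0.05 limma also gave 1 of the 10 genes, where 35.9% of all genes tested reached it. The groups did not overlap for 5 of the 10 genes, against 64.6% of all genes tested. RUVBL1, ACTL6A and VPS72 were so separated with shLOXL2 higher, as were 31.8% of all genes tested, and SRCAP and YEATS4 with shLOXL2 lower, as were 32.8%.

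The RUVBL1 and RUVBL2 proteins are AAA+ ATPases that form joint rings and act both in the remodelling complexes and as assembly factors. RUVBL1 (ENSG00000175792, chromosome 3) had 52.8 and 54.2 FPKM in shLOXL2 and 51.8 and 52.3 FPKM in shControl. Both shLOXL2 libraries were above both shControl libraries, by less than 5%. The log2 difference came to 0.039 ± 0.033 (SE, n = 2 per group) with a 95% interval of -0.057 to 0.14, and it did not pass (limma adjusted p = 0.446). RUVBL2 (ENSG00000183207, chromosome 19) had 126 and 133 FPKM in shLOXL2 and 127 and 134 FPKM in shControl, so that the groups overlapped. Its log2 change was -0.016 ± 0.051 (SE) with an interval of -0.17 to 0.14 (limma adjusted p = 0.849). With each library scaled to equal sums of non-mitochondrial genes the RUVBL1 change was -0.035, and with equal medians the RUVBL2 change was 0.0082, so neither gene has a settled sign. The level of RUVBL2 over that of RUVBL1 was 2.38 and 2.45 in the shLOXL2 libraries and 2.45 and 2.57 in the shControl libraries, a ratio on which no test was run.

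ACTL6A (ENSG00000136518, chromosome 3), which encodes the actin-related protein BAF53A of TIP60, SRCAP, INO80 and BAF complexes, had 269 and 308 FPKM in shLOXL2 and 252 and 256 FPKM in shControl. Both shLOXL2 libraries were above the shControl libraries, but they lay further from each other than the lower of them did from shControl. The log2 difference came to 0.18 ± 0.079 (SE, n = 2 per group), with an interval of -0.055 to 0.41, and did not pass (limma adjusted p = 0.213). Without shLOXL2 replicate 2, the library with the highest value, it was 0.083, and without shLOXL2 replicate 1 it was 0.28. The level of ACTL6A over that of KAT5 was 5.86 and 5.85 in shLOXL2 and 4.79 and 4.57 in shControl, values that did not overlap and were not tested. Its ratio to RUVBL2 did not overlap either, and its ratio to DMAP1 overlapped. Such separation was common, since 64.6% of single genes tested had groups that did not overlap. On the RefSeq map MRPL47 overlaps ACTL6A, and it stood at 79.4 and 84.1 FPKM in shLOXL2 and 85.3 and 90.6 FPKM in shControl.

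YEATS4 (ENSG00000127337, chromosome 12) encodes GAS41, a reader of acetylated histone H3 that TIP60 and SRCAP share. It had 19.7 and 20.3 FPKM in shLOXL2 and 23.8 and 24.5 FPKM in shControl. Both shLOXL2 libraries were below both shControl libraries, and the replicates of each group lay within 1 FPKM of each other. The mean was 19.99 ± 0.392 FPKM in shLOXL2 and 24.2 ± 0.475 FPKM in shControl (SD, n = 2 each). The log2 change was -0.26 ± 0.039 (SE), with a 95% interval of -0.38 to -0.15 (limma adjusted p = 0.0353). In bulk RNA, fewer cells with the transcript and less transcript per cell cannot be told apart. The call was lost when any library was dropped, which leaves 1 residual degree of freedom instead of 2. The limma adjusted p was then 0.188 without shControl replicate 1, 0.203 without shControl replicate 2, 0.133 without shLOXL2 replicate 1 and 0.125 without shLOXL2 replicate 2, while the log2 change stayed between -0.28 and -0.24. The call was also lost without a filter on low values (adjusted p = 0.0690), with equal medians (0.0571) and with a trend-free variance prior (0.0575). It was kept in the fit of protein-coding genes alone (limma adjusted p = 0.0125). That fit called more genes, 2178 of 11216 as lower against 1450 of 16987 in the main fit. With a library dropped, most calls over all genes tested were lost as well.

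**Figure D2:**
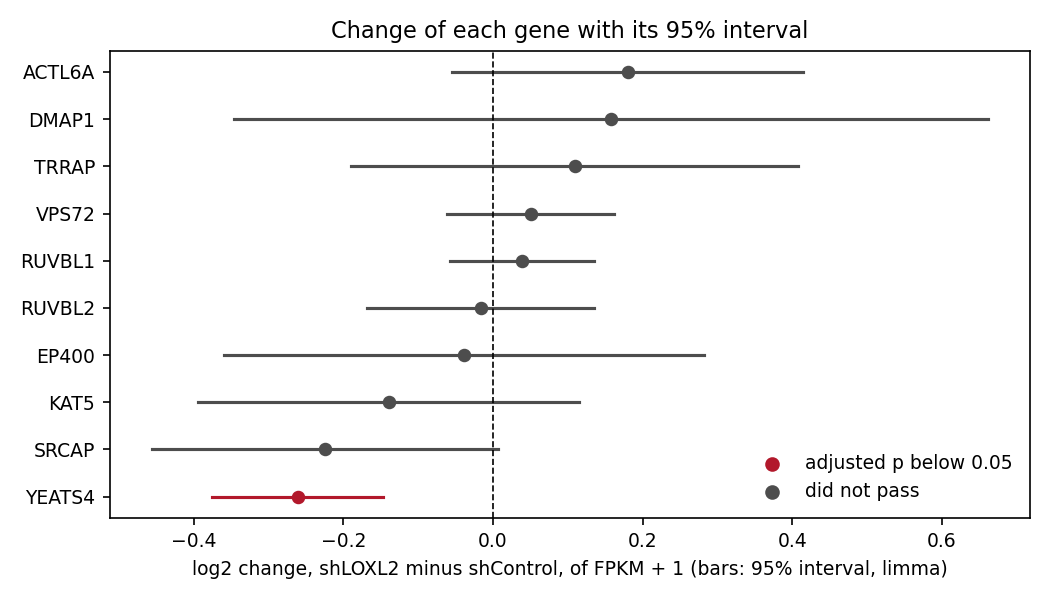
Log2 change of each gene between shLOXL2 and shControl on the log2(FPKM + 1) scale, with bars for limma's 95% interval. YEATS4, with an interval of -0.38 to -0.15, is the gene of the 10 that passed, and the interval of DMAP1 is the widest, from -0.35 to 0.66.

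Among 11215 other protein-coding genes, the 3 whose centred log2(FPKM + 1) values over the 4 libraries lay nearest to those of YEATS4 were SPAST, TTC19 and SLC30A9, at Euclidean distances of 0.0089, 0.015 and 0.017. SPAST, which encodes a microtubule-severing ATPase, had 6.59 and 6.73 FPKM in shLOXL2 and 8.03 and 8.30 FPKM in shControl, without passing (limma adjusted p = 0.0516). TTC19, which encodes an assembly factor of respiratory complex III, had 19.7 and 20.1 FPKM in shLOXL2 and 23.7 and 24.6 FPKM in shControl (adjusted p = 0.0359). SLC30A9 had 33.2 and 34.3 FPKM in shLOXL2 and 39.5 and 40.9 FPKM in shControl (adjusted p = 0.0403). The calls of TTC19 and SLC30A9 were lost with any library left out, without a filter (adjusted p = 0.0711 and 0.0755), with equal medians (0.0585 and 0.0692) and with a trend-free variance prior (0.0578 and 0.0675). With 4 libraries, such likeness mostly records a shared direction and size of change.

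DMAP1 (ENSG00000178028, chromosome 1), which encodes a SANT-domain subunit that also binds the DNA methyltransferase DNMT1, had 21.8 and 19.0 FPKM in shLOXL2 and 21.0 and 15.7 FPKM in shControl. The groups overlapped, and shControl replicate 2 was the low value. The log2 difference came to 0.16 ± 0.17 (SE, n = 2 per group), with an interval of -0.35 to 0.66 (limma adjusted p = 0.557). It was 0.36 without shControl replicate 1 and -0.042 without shControl replicate 2, so its sign depended on the control libraries. Without shLOXL2 replicate 1 it was 0.066 and without shLOXL2 replicate 2 it was 0.25, so its size depended on both groups. VPS72 (ENSG00000163159, chromosome 1), which encodes the H2A.Z-binding protein YL1, had 73.4 and 70.1 FPKM in shLOXL2 and 69.2 and 69.3 FPKM in shControl. Both shLOXL2 libraries were above shControl, 1 of them by less than 1 FPKM. The log2 change of VPS72 was 0.050 ± 0.038 (SE), with an interval of -0.061 to 0.16 (limma adjusted p = 0.421), and it was -0.024 with equal sums of non-mitochondrial genes. The level of YEATS4 over that of VPS72 was 0.269 and 0.289 in shLOXL2 and 0.344 and 0.353 in shControl, which did not overlap and were not tested. Of single genes tested, 64.6% had groups that did not overlap, and the share among ratios was not computed.

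KAT5, TRRAP and EP400, which belong to TIP60 and not to SRCAP, did not pass. KAT5 (ENSG00000172977, chromosome 11), the acetyltransferase TIP60 itself, had 45.9 and 52.6 FPKM in shLOXL2 and 52.5 and 55.96 FPKM in shControl. The higher shLOXL2 library was level with the lower shControl library, so the groups overlapped. The log2 difference came to -0.14 ± 0.086 (SE, n = 2 per group), with an interval of -0.39 to 0.12 (limma adjusted p = 0.342). TRRAP (ENSG00000196367, chromosome 7), the scaffold related to PI3 kinases that binds activators such as MYC, had 4.97 and 4.15 FPKM in shLOXL2 and 4.21 and 4.08 FPKM in shControl. The groups overlapped, with shLOXL2 replicate 1 as the high value, and the log2 change was 0.11 ± 0.10 (SE), with an interval of -0.19 to 0.41 (limma adjusted p = 0.493). Without shLOXL2 replicate 1 it was 0.0026. EP400 (ENSG00000183495, chromosome 12), the SWI2/SNF2-type motor of the complex, had 1.91 and 1.73 FPKM in shLOXL2 and 1.94 and 1.86 FPKM in shControl. The groups overlapped, at a log2 change of -0.039 ± 0.11 (SE), with an interval of -0.36 to 0.28 (limma adjusted p = 0.830). EP400 is uncertain, since its transcribed pseudogene EP400P1 may share reads with it, at 3.49 and 3.37 FPKM in shLOXL2 and 3.77 and 3.69 FPKM in shControl (limma adjusted p = 0.408).

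SRCAP (ENSG00000080603, chromosome 16), the motor that exchanges H2A for H2A.Z, had 6.94 and 6.42 FPKM in shLOXL2 and 7.55 and 8.41 FPKM in shControl. Both shLOXL2 libraries were below both shControl libraries, at 83.7% of the control mean. The log2 difference came to -0.22 ± 0.078 (SE, n = 2 per group), with an interval of -0.46 to 0.0069, and did not pass (limma adjusted p = 0.147). It passed under none of the 15 alternative settings, where the adjusted p ran from 0.0777 to 0.418. The level of YEATS4 over that of SRCAP was 2.84 and 3.16 in shLOXL2 and 3.16 and 2.91 in shControl, so the groups overlapped on this ratio.

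**Figure D3:**
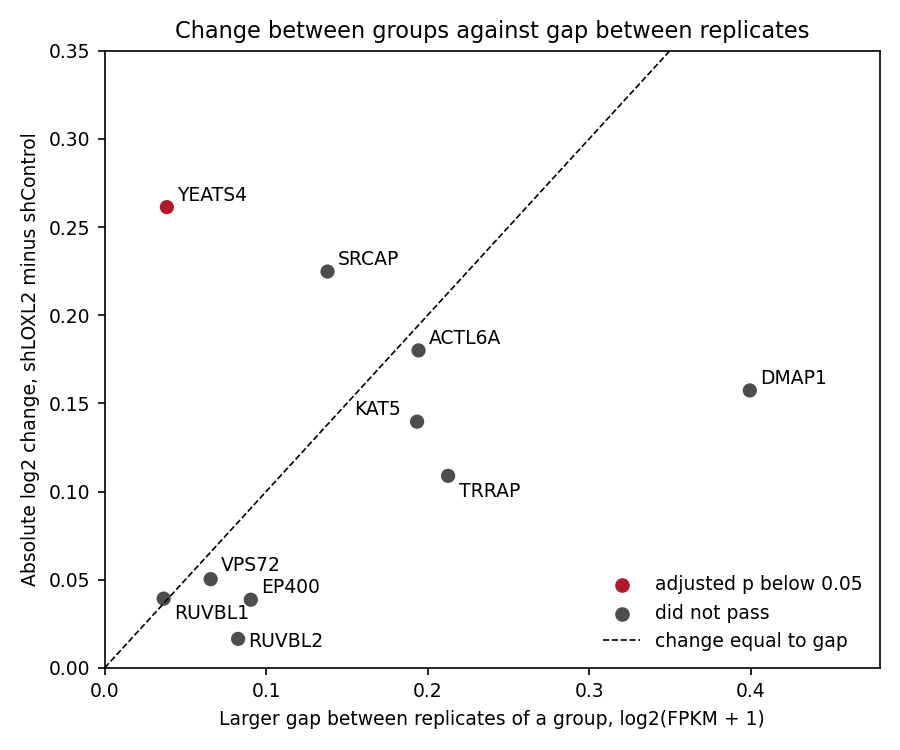
Absolute log2 change between the groups against the larger of the gaps between replicates, both on the log2(FPKM + 1) scale, with a dashed line where they are equal. YEATS4, SRCAP and RUVBL1 lie above the line, RUVBL1 by little, and DMAP1 has the largest gap at 0.40.

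The change exceeded the larger gap between replicates for 3 of the 10 genes, YEATS4, SRCAP and RUVBL1, against 54.7% of all genes tested. YEATS4 changed by 0.26 with gaps of 0.038 and 0.039, SRCAP by 0.22 with gaps of 0.097 and 0.14, and RUVBL1 by 0.039 with gaps of 0.037 and 0.012, each in shLOXL2 and then shControl. For DMAP1 the gap of 0.40 between the shControl libraries exceeded its change of 0.16.

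RefSeq promoter windows of the 250 bases before the start (GRCh38.p14) were found for 7 of the 10 genes, namely RUVBL1, RUVBL2, DMAP1, KAT5, EP400, SRCAP and YEATS4, with 2 windows each for RUVBL1 and RUVBL2 and 9 in all. A gene is counted where either of its windows holds a motif, whereas the shares given beside the counts are per window. The windows were searched on both strands for the E-box CACGTG, the ETS core CCGGAAG, the cAMP response element TGACGTCA, the NRF1 site, the CCAAT box CCAAT, the E2F site TTTGGCGC and the GC box GGGCGG, none of which holds another. The ETS core was found before DMAP1, KAT5 and EP400, while 8.52% of 35116 RefSeq windows hold it. The CCAAT box was found before RUVBL1, RUVBL2 and DMAP1, the GC box before RUVBL2, EP400 and SRCAP and the E-box before KAT5, and 32.01%, 42.6% and 6.34% of all windows hold these. The other 3 motifs had no match in these windows. The YEATS4 window, that of the gene that fell, held none of the 7 motifs, and says no more than that these letters are not in it. It is shown with the windows of KAT5 and DMAP1, which did not pass and each hold the ETS core at 2 positions. Letters are lower case, 5′ to 3′ on the gene's strand (+ for all 3), with the matches in capitals.
YEATS4, chr12:69359493-69359742: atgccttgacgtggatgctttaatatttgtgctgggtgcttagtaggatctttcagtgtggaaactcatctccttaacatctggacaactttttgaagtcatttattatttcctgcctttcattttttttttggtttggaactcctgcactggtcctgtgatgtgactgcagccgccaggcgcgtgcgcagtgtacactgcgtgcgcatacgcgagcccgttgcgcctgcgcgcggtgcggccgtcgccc
KAT5, chr11:65712002-65712251: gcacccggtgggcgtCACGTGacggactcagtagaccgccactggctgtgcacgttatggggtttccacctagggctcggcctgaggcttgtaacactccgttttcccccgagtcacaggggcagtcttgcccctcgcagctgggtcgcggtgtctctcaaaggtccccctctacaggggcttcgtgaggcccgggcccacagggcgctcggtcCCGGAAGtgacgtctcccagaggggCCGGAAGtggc
DMAP1, chr1:44213221-44213470: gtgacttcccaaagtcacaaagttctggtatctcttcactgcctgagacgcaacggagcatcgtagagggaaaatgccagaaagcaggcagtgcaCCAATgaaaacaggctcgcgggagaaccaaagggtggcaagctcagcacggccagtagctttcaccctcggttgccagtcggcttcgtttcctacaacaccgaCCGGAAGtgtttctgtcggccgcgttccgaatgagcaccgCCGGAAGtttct
In KAT5 the ETS matches start 36 and 11 bases before the start and the E-box 235 bases before it, and in DMAP1 the ETS matches start 52 and 12 bases and the CCAAT box 155 bases before it. The windows are 51.6% G and C for YEATS4, 66.4% for KAT5 and 55.2% for DMAP1, and the median of all windows is 58.0%.

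Other genes of the same complexes and of their partners were listed by function, 80 in all, of which 78 were tested, 4 rose, 2 fell and 72 did not pass. That is 7.69% called, against 16.9% of all genes tested, at a median log2 change of 0.028 and a median absolute change of 0.090. With any library left out, the limma calls among these genes were lost, as were most calls over all genes tested. Those fits therefore cannot set these genes apart from the background.

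The remaining TIP60 subunits had 2 that rose and 0 that fell of 11, at a median log2 change of 0.084. That is 18.2% called, near the 16.9% of all genes tested and the 20.8% of protein-coding genes. MORF4L1, which encodes the chromodomain protein MRG15, had 50.5 and 51.8 FPKM in shLOXL2 and 40.4 and 40.5 FPKM in shControl. It differed by 0.33 ± 0.033 on the log2 scale (SE, n = 2 per group; limma adjusted p = 0.0203), larger than the gap between replicates of either group. ACTB, the beta-actin gene, whose product is a subunit of these complexes besides its cytoskeletal role, had 5020 and 5243 FPKM in shLOXL2 and 3928 and 3952 FPKM in shControl (log2 0.38, limma adjusted p = 0.0240). With quantile normalization the change of ACTB was 0.055 and did not pass (adjusted p = 0.462), nor did it pass without a filter (adjusted p = 0.187), and ACTB is uncertain because it has many processed pseudogenes. BRD8, EPC1, EPC2, MRGBP, MORF4L2, ING3, MEAF6, MBTD1 and JAZF1 did not pass. The SRCAP subunits ACTR6 and ZNHIT1 did not pass either, with ZNHIT1 at 26.3 and 27.8 FPKM in shLOXL2 and 23.2 and 23.8 FPKM in shControl (limma adjusted p = 0.0739).

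Of the 5 H2A variants and chaperones tested, limma gave 4 at an unadjusted p below 0.05, which 35.9% of all genes tested reached. After adjustment 0 of the 5 passed, against 16.9% of all genes tested. The H2A.Z genes, whose product SRCAP deposits, did not: H2AZ1 had 558 and 580 FPKM in shLOXL2 and 607 and 627 FPKM in shControl (log2 -0.12, limma adjusted p = 0.138), and H2AZ2 had 172 and 171 FPKM in shLOXL2 and 164 and 172 FPKM in shControl (log2 0.024, adjusted p = 0.680). ANP32E, the chaperone that removes H2A.Z, had 153 and 148 FPKM in shLOXL2 and 171 and 167 FPKM in shControl (adjusted p = 0.0645). H2AX, the variant phosphorylated at DNA breaks, had 72.2 and 71.8 FPKM in shLOXL2 and 79.0 and 81.1 FPKM in shControl (adjusted p = 0.0617). The groups of H2AZ1, ANP32E and H2AX did not overlap, with shLOXL2 as the lower group, as for 32.8% of all genes tested. MACROH2A1, which encodes a histone variant known from silent chromatin, did not overlap either, with shLOXL2 as the higher group, as for 31.8% of all genes tested, at 161 and 163 FPKM in shLOXL2 and 143 and 147 FPKM in shControl (adjusted p = 0.0580). In the fit of protein-coding genes alone 2 genes of this list passed as lower and 1 as higher. Of all 11216 genes in that fit, 2178 passed as lower and 2136 as higher.

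INO80, the remodelling complex that also holds RUVBL1, RUVBL2 and ACTL6A, had 1 subunit that rose and 1 that fell of 12. This is 16.7% called, near the 16.9% of all genes tested. INO80B rose, with 22.3 and 23.0 FPKM in shLOXL2 and 16.5 and 17.1 FPKM in shControl (log2 0.41 ± 0.041 SE, n = 2 per group, limma adjusted p = 0.0205). YY1, a zinc finger transcription factor found in INO80, fell, with 66.3 and 65.2 FPKM in shLOXL2 and 82.5 and 81.8 FPKM in shControl (log2 -0.32 ± 0.030 SE, n = 2 per group, limma adjusted p = 0.0198). Among the assembly factors that work with RUVBL1 and RUVBL2 (the R2TP and TTT complexes and their partners), 1 of 9 (11.1%) fell and 0 rose. This was NOPCHAP1, which encodes an adaptor between RUVBL ATPases and the snoRNP protein NOP58, with 31.4 and 29.6 FPKM in shLOXL2 and 36.8 and 37.6 FPKM in shControl (log2 -0.28, limma adjusted p = 0.0409). Its call was lost without a filter, with equal medians and with a trend-free variance prior, at adjusted p values of 0.0802, 0.0533 and 0.0658. PIH1D1, RPAP3, TELO2, TTI1 and TTI2 did not pass, and 0 of the 5 kinases that TTT helps to mature did, ATM, ATR, PRKDC, MTOR and SMG1.

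Of 15 SAGA subunits, which share TRRAP with TIP60, 1 rose and 0 fell, or 6.67% called against 16.9% of all genes tested. ATXN7L3, a subunit of the SAGA deubiquitinase module, had 68.5 and 65.1 FPKM in shLOXL2 and 48.9 and 47.2 FPKM in shControl (log2 0.47 ± 0.044 SE, n = 2 per group, limma adjusted p = 0.0198). TAF5L, with the most negative value of the list, had 10.7 and 8.95 FPKM in shLOXL2 and 13.0 and 14.0 FPKM in shControl and did not pass (log2 -0.43, adjusted p = 0.0763). Of 15 subunits of the BAF remodelling complex, which uses ACTL6A, 0 passed, and SMARCC1 came nearest at 57.8 and 56.5 FPKM in shLOXL2 and 44.0 and 48.9 FPKM in shControl (log2 0.30, limma adjusted p = 0.0668). The acetyltransferases of the MYST family other than KAT5, which are KAT6A, KAT6B, KAT7 and KAT8, had 0 of 4 that passed.

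**Figure D4:**
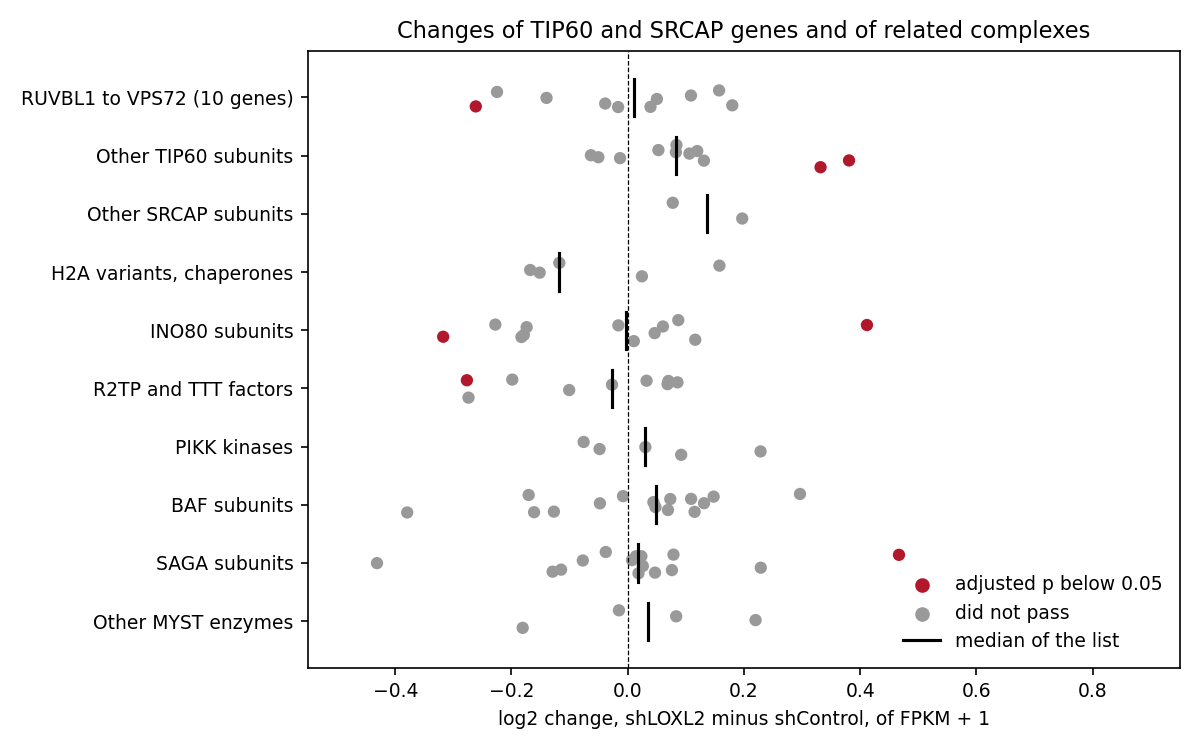
Log2 change of each tested gene, shLOXL2 minus shControl on the log2(FPKM + 1) scale, by list, with a bar at the median of the list and coloured points for genes at an adjusted p below 0.05. Medians run from -0.12 for the H2A variants to 0.14 for the 2 other SRCAP subunits, and 7 of the 88 genes shown passed.

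Paralogs of the 10 genes were also measured. ACTL6B, the neuronal counterpart of ACTL6A, was listed at 0 and 0.0068 FPKM in shLOXL2 and at 0 in both shControl libraries. The YEATS-domain genes YEATS2, MLLT1 and MLLT3 had log2 changes of -0.068, -0.16 and 0.0095 and did not pass (limma adjusted p = 0.334, 0.253 and 0.941). YEATS2 had 14.7 and 14.8 FPKM in shLOXL2 and 15.8 and 15.2 FPKM in shControl, so both shLOXL2 libraries were below shControl. The groups of MLLT1 and of EP400P1 were also apart with shLOXL2 lower, and those of MLLT3 overlapped. Such separation was found for 32.8% of all genes tested.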

How the data were processed

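Gene expression was deposited by the authors in FPKM, with 1 column per RNA library. Bowtie, Cufflinks and GRCh37 are named, without versions, in the submitters' processing notes, and the annotation and use of strand are not given in the sources used here. Reads of overlapping genes (SEC61A1 and EEFSEC with RUVBL1, MRPL47 with ACTL6A, RNASEH2C with KAT5, on the RefSeq map) may therefore be split in unknown ways. FPKM holds no read counts, so the depth of the libraries is unknown. Among small RNA genes the commonest ratio of FPKM between replicates was 0.988 in shControl (replicate 1 over 2) and 1.05 in shLOXL2.

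Ensembl identifiers were matched to symbols for 52169 of 63657 rows. The 16987 genes that averaged 1 FPKM or more were fitted in limma 3.58.1 (R 4.3.3) as log2(FPKM + 1), a scale that understates changes of low genes. Its moderated test with an intensity trend was two-sided, and p-values were adjusted by Benjamini-Hochberg over all genes tested, at a threshold of 0.05. The 15 alternatives covered pseudocount, filter, scaling, variance prior, gene class, a replicate block and each library left out. Named genes are the 10 members, LOXL2, up to 5 genes past the threshold per list, the members' paralogs and the 3 genes most like YEATS4. Other genes named with values were chosen after their values were seen. The members and lists were chosen with earlier results of these data known. The H3K4ox and ATAC peak lists were not used here, since placing them at genes needs a GRCh37 annotation. ZNHIT3, ACTL6C, LHX1 and NEFL of the lists were not analysed here, nor were protein sequences, and 1 further haematopoietic marker is not reported here.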

Additional observations from a re-analysis of the deposited data

How the results depend on the processing

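Of the 10 genes, 0 rose in all 15 alternatives and YEATS4 was the 1 that fell in any, but 0 fell without a filter on low values, with equal medians, with a variance prior without a trend, with the replicate block and with any library left out (0 to 0). In those settings the log2 change of YEATS4 was -0.26 without a filter, -0.24 with equal medians, -0.26 without a trend and -0.28 to -0.24 with a library left out. Signs changed for RUVBL1 (-0.035) and VPS72 (-0.024) with equal sums of non-mitochondrial genes, for RUVBL2 with equal medians (0.0082), without shControl replicate 2 (0.025) and without shLOXL2 replicate 1 (0.023), for EP400 with quantile normalization (0.0057) and without shLOXL2 replicate 2 (0.0066), and for DMAP1 without shControl replicate 2 (-0.042). With a library left out RUVBL2 ran from -0.058 to 0.025, DMAP1 from -0.042 to 0.36, EP400 from -0.084 to 0.0066 and MLLT3 from -0.060 to 0.079. MLLT3 changed sign with equal sums (-0.059) and without shControl replicate 2 (-0.060) or shLOXL2 replicate 2 (-0.024). The cause was not tested. LOXL2 lost its call without either shControl library, at log2 changes of -2.72 to -2.41 over the 4 fits with a library left out. Leaving out a library leaves 1 residual degree of freedom, and the lone library is assumed to vary like the other group.

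Over all genes, 601 rose and 542 fell without a filter, 926 and 1022 without a trend, 2136 and 2178 among protein-coding genes alone, and 18 to 220 and 70 to 217 with a library left out. With equal sums of non-mitochondrial genes 1025 rose and 2175 fell, against 1419 and 1450 as reported, and the median of all genes was -0.071. Of the 78 other genes of the complexes, 8 rose and 6 fell among protein-coding genes alone, 0 to 0 with a library left out, and 1 fell without a filter, with equal medians or without a trend, while 5 fell with equal sums.

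With the replicate number as a block, limma called 0 genes as higher and 0 as lower, with 5519 at an unadjusted p below 0.05, so 0 members and 0 of the other genes passed. The log2 changes stay the same in a balanced block, -0.26 for YEATS4 (adjusted p = 0.0853) and -2.56 for LOXL2 (adjusted p = 0.0713). Deviations of replicate 1 libraries correlated at -0.0013 between the groups over 16987 genes, so no deviation shared by replicate number was seen. The labels do not say whether the libraries were prepared in pairs, and this correlation cannot decide it. The depth of the libraries is unknown, which leaves the counting error of low genes such as EP400 unstated.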
